A study of Mus musculus with 18 samples.

Results

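Otx2, Pou3f1, Fgf5 and Zic2 were followed by their symbols in a whole-transcriptome table of mouse cells, as 4 of the 25909 genes counted. All 4 passed the filter on low counts and are among the 12856 genes tested. The study measured polyA RNA in 18 libraries, 3 for each of 6 groups: wild-type (WT) and Esrrb knockout (KO) cells as epiblast-like cells (EpiLC) and as primordial germ cell-like cells (PGCLC) at day 3 and day 5. Esrrb encodes an orphan nuclear receptor that acts in naive pluripotency. Both genotypes were SGET embryonic stem cells of strain B6CBA/129, kept in 2i and LIF medium. EpiLC were made from them on fibronectin with activin A and bFGF and were not sorted. PGCLC were made from EpiLC with BMP4, LIF, SCF, BMP8a and EGF and were sorted as SG+ETlow, positive for the Stella reporter and low for the Esg1 reporter that SGET cells carry. EpiLC and PGCLC therefore differ in sorting as well as in stage. The late libraries are labelled 5 days in one field and day 6 in another, and are called day 5 here. The KO libraries carry the line names A5, B1 and A2 (A2 is written KO2 in some titles), and the WT libraries carry the numbers 1 to 3. The labels do not say how the KO lines were derived, or that WT libraries with different numbers came from separate cultures, so the p-values measure the spread between these libraries, which may be technical for WT.

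The formative state lies between naive pluripotency and lineage commitment, and EpiLC are its usual culture model. Otx2 is a homeodomain transcription factor that moves cells out of the naive state and is known to restrain entry into the germline. Pou3f1 (Oct6) is a POU-domain transcription factor of the postimplantation epiblast and of neural and Schwann cell lineages. Zic2 is a zinc-finger transcription factor of epiblast and early neural tissue. Fgf5 is a secreted fibroblast growth factor that serves as a standard marker of the postimplantation epiblast.

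Library totals ran from 3032965 to 5286330 counts, which sets the precision for the low levels given below. Esrrb itself was counted 127, 113 and 79 times in WT EpiLC, against 29 and 18 times in KO A5 and B1 and 167 times in the EpiLC library labelled KO A2. That library had more Esrrb counts than any WT EpiLC library, and is called the library labelled KO A2 wherever it enters. Esrrb was not called in KO against WT EpiLC (log2 fold change -0.68 ± 0.52, adjusted p = 0.401 by edgeR). Esrrb was counted 2596, 3125 and 2691 times in WT day 3 and 2930, 2987 and 2434 times in WT day 5. KO day 3 libraries had 745, 499 and 359 counts and KO day 5 libraries 600, 933 and 631. All of these lay below every WT library of their stage but above every WT EpiLC library. The library labelled KO A2 also stood apart in marker genes of other cell types. Its summed trophoblast markers were at 1335 CPM (counts scaled by the library total), against 57.2 to 67.3 in WT EpiLC, and its summed fibroblast and mesenchyme markers at 2064 CPM, against 243 to 261. KO A5 and B1 EpiLC had trophoblast sums of 212 and 97.2 CPM and mesenchyme sums of 357 and 282 CPM. These also lay above every WT EpiLC library. The library labelled KO A2 had the highest naive pluripotency sum of the EpiLC libraries too, at 634 CPM against 304 to 372 in WT EpiLC. KO A5 and B1 lay below WT EpiLC in that sum, at 242 and 164 CPM.

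**Figure D1:**
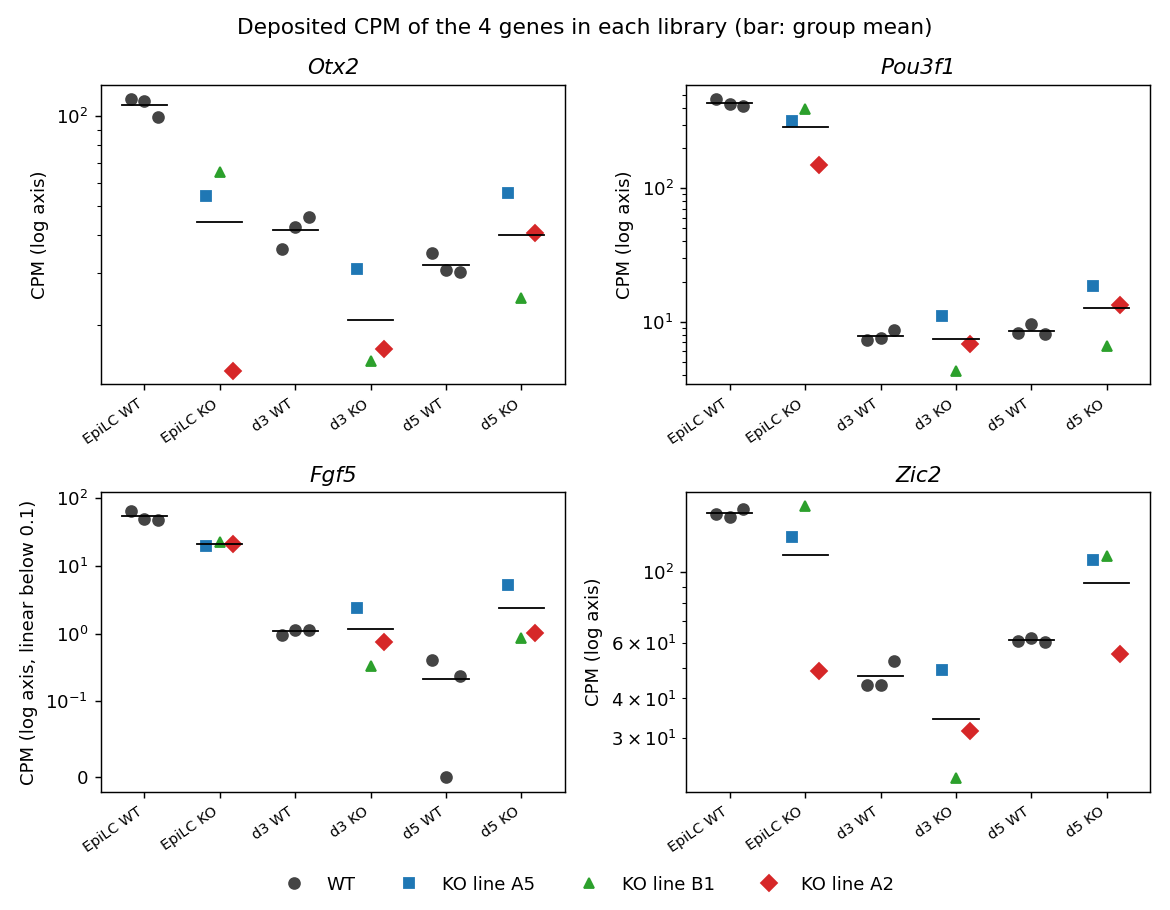
CPM (log axis) of each gene in every library by group, with symbols for WT and for KO lines A5, B1 and A2 and a bar for each group mean. Pou3f1 and Fgf5 are high in EpiLC and low in all PGCLC libraries, whereas Otx2 and Zic2 range less. The Fgf5 axis is linear near 0, and the WT day 5 library with 0 Fgf5 counts is drawn at 0.

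The genes differ in structure as well as in level. In GENCODE M21 (GRCm38), Otx2 (ENSMUSG00000021848) lies on the minus strand at chr14:48657677-48673819, and Zic2 (ENSMUSG00000061524) on the plus strand at chr14:122475435-122479852. Pou3f1 (ENSMUSG00000090125) is a single-exon gene on the plus strand at chr4:124656807-124660655. Fgf5 (ENSMUSG00000029337) lies on the plus strand at chr5:98254184-98277030 and has 3 exon blocks. Counts were made over genes, so exons, introns and UTRs of a gene cannot be separated. The annotation places Otx2os1 on the opposite strand across part of Otx2, Gm49154 on the same strand as Otx2, and Gm2164 antisense to Pou3f1. None of these 3 has a row of its own among the counted genes. The library kit marks strand, but the strand setting of the counting is not given in the sources used here. Reads of such partners can therefore not be told apart from those of Otx2 and Pou3f1.

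Per kilobase of exon, Pou3f1 was the most abundant of the 4 in WT EpiLC, at 114 ± 7.65 CPM per kilobase (SD, n = 3). Zic2 stood at 53.2 ± 1.51, Otx2 at 25.8 ± 1.98 and Fgf5 at 21.4 ± 3.61 CPM per kilobase in the same libraries. By WT day 5 the order had changed: Zic2 was at 21.2 ± 0.288, Otx2 at 7.56 ± 0.609, Pou3f1 at 2.23 ± 0.218 and Fgf5 at 0.0858 ± 0.0818 CPM per kilobase. The 4 genes therefore shared high EpiLC levels but not the depth of the later fall.

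RefSeq gives start-site windows for 2 of the 4 genes, 1 for Fgf5 and 4 for Otx2 (GRCm38.p6). The 250 bases before the start are shown for Fgf5, which was called in KO against WT at both EpiLC and day 5, and for an Otx2 start that holds a match to the OTX core motif. Both are printed 5′ to 3′ on the gene's strand. The Fgf5 window lies at chr5:98253934-98254183 (plus strand) and the Otx2 window at chr14:48665110-48665359 (minus strand), and capitals mark the motif match.
Fgf5: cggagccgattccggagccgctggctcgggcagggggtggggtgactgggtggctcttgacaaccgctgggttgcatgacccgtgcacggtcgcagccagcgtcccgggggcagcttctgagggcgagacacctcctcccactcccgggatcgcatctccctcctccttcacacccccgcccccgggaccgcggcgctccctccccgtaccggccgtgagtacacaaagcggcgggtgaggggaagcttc
Otx2: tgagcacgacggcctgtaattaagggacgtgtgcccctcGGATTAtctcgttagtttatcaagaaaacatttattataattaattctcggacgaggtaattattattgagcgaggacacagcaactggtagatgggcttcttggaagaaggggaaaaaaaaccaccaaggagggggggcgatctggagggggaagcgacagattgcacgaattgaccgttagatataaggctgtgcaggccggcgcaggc
The 2 windows differ in base composition, with 70.8% G and C for Fgf5 and 48.4% for Otx2, against a median of 52.4% over 32851 RefSeq windows. The search covered both strands of 300 bases (250 before and 50 after the start) for 3 words, none of which contains another. TCAAGGTCA, a site of the kind bound by Esrrb, occurred in 0 of the 5 member windows and in 0.423% of all windows. The octamer ATGCAAAT, bound by POU factors, occurred in 0 of 5 and in 1.74% of all windows. The OTX core TAATCC occurred in 1 of 5 and in 7.06% of all windows: its reverse complement starts 211 bases before the Otx2 start shown. These matches describe letters in these windows and no binding was measured.

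The first comparison asked how the 4 genes stood in KO against WT EpiLC, the formative stage itself. Otx2 and Fgf5 fell in KO EpiLC, while Pou3f1 and Zic2 did not pass the test. Thus 2 of the 4 genes were called, both lower, by edgeR's quasi-likelihood test at a Benjamini-Hochberg adjusted p under 0.05, against 11.1% of all genes called in either direction and 4.15% called lower. Otx2 was at 115, 113 and 99.4 CPM in the WT libraries and at 54.1, 65.0 and 14.1 CPM in KO A5, KO B1 and the library labelled KO A2. All KO libraries lay below all WT libraries, and the library labelled KO A2 lay lowest. The log2 fold change of Otx2 was -1.36 ± 0.38 (SE, adjusted p = 0.0337), with group means of 44.4 ± 26.8 and 109 ± 8.36 CPM (SD, n = 3).

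Fgf5 stood at 63.8, 48.8 and 47.7 CPM in WT EpiLC and at 19.5, 22.6 and 20.6 CPM in KO A5, KO B1 and the library labelled KO A2. The groups did not overlap, and the KO libraries lay close together, with a coefficient of variation of 7.46% against 60.3% for Otx2 in the same libraries. The log2 fold change of Fgf5 was -1.40 ± 0.35 (adjusted p = 0.0235 by edgeR). Fgf5 in the library labelled KO A2 was at 38.5% of the WT mean, between KO A5 at 36.5% and KO B1 at 42.3%. Otx2 in that library was at 12.9% of the WT mean, against 49.6% and 59.6% in KO A5 and B1.

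Pou3f1 was at 471, 429 and 415 CPM in WT EpiLC and at 319, 394 and 149 CPM in KO A5, KO B1 and the library labelled KO A2. Its groups did not overlap, but KO B1 was at 89.9% of the WT mean. The log2 fold change was -0.67 ± 0.28 (adjusted p = 0.127). Zic2 was at 153, 149 and 158 CPM in WT and at 129, 162 and 48.8 CPM in KO, in the same order. KO B1 was the highest of the 6 libraries for Zic2 and the library labelled KO A2 the lowest, and the log2 fold change was -0.50 ± 0.33 (adjusted p = 0.326).

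The library labelled KO A2 was the lowest of the 6 EpiLC libraries for Otx2, Pou3f1 and Zic2. It also had the highest trophoblast, mesenchyme and naive pluripotency sums of the 6. The part of other cells or of another cell state in the 3 values was not tested. In bulk RNA fewer cells of a type and less RNA per cell cannot be told apart. Without that library, Otx2 was called lower at -0.94 (adjusted p = 0.0468) and Fgf5 at -1.41 (adjusted p = 0.0255). Leaving out any single WT EpiLC library ended both calls, with adjusted p from 0.0797 to 0.0977 for Otx2 and from 0.0677 to 0.102 for Fgf5, although the log2 fold changes stayed between -1.48 and -1.26. Leaving out KO B1 brought Pou3f1 past the threshold (-0.96, adjusted p = 0.0296). A fit on the 6 EpiLC libraries alone ended both calls too (adjusted p = 0.207 for Otx2 and 0.0784 for Fgf5).

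**Figure D2:**
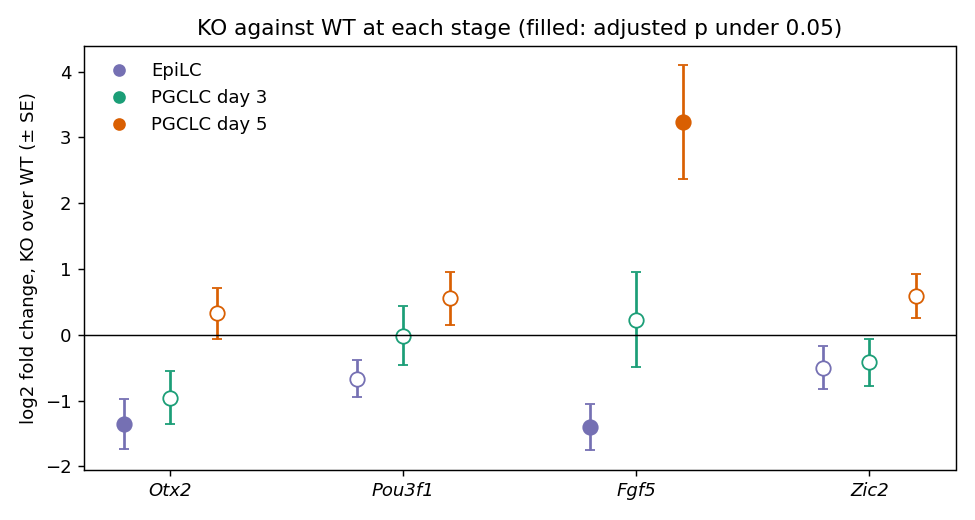
Log2 fold change of KO over WT (± SE) from the edgeR fit for each gene at EpiLC, day 3 and day 5, with filled points for an adjusted p under 0.05. Filled points are Otx2 (-1.36) and Fgf5 (-1.40) in EpiLC and Fgf5 (3.23) at day 5.

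The next comparison followed the same genes from EpiLC to day 3, the step at which PGCLC are induced. All 4 fell in WT, where 57.5% of all genes were called and 28.5% were called lower. Pou3f1 and Fgf5 fell furthest: Pou3f1 went from 438 ± 29.4 to 7.81 ± 0.744 CPM, a log2 change of -5.86 ± 0.37 (adjusted p = 1.46e-08). Fgf5 went from 53.4 ± 9.02 to 1.08 ± 0.1001 CPM, a change of -5.64 ± 0.49 (adjusted p = 1.92e-07).

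The day 3 WT libraries held 7.22, 7.57 and 8.65 CPM of Pou3f1 and 0.963, 1.14 and 1.14 CPM of Fgf5, the latter from 4, 6 and 5 counts. Both genes were thus close to 2% of their EpiLC level, at 1.78% and 2.02%. Otx2 and Zic2 kept more. Otx2 was at 35.9, 42.8 and 46.0 CPM in WT day 3, which is 38.1% of its EpiLC mean, with a log2 change of -1.44 ± 0.38 (adjusted p = 0.00423). Zic2 was at 44.1, 44.3 and 52.6 CPM, or 30.6% of its EpiLC mean, with a change of -1.76 ± 0.34 (adjusted p = 0.000465). No EpiLC library of WT overlapped a WT day 3 library for any of the 4 genes. The share of all genes without such overlap is not given here. In KO, the EpiLC and day 3 libraries overlapped for Otx2 and Zic2 and did not for Pou3f1 and Fgf5.

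In KO all 4 also fell, where 42.0% of all genes were called and 21.4% were called lower. Pou3f1 changed by -5.21 ± 0.37 (adjusted p = 1.35e-07), Fgf5 by -4.01 ± 0.51 (adjusted p = 1.77e-05) and Zic2 by -1.68 ± 0.35 (adjusted p = 0.00143). Otx2 changed by -1.04 ± 0.41 and lay just inside the threshold (adjusted p = 0.04998). With the KO line as a block in the edgeR fit its change was -1.02 and the adjusted p 0.0633, which ended the call. The call was also lost without EpiLC KO A5, EpiLC KO B1, day 3 KO B1 or day 3 KO A2 (adjusted p from 0.138 to 0.225), and without EpiLC KO A5 or B1 the change was -0.88 or -0.66.

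The lines differed in how much of their EpiLC level remained. Otx2 at day 3 was at 57.0% of the EpiLC level in KO A5 and at 23.3% in KO B1. In line A2 it was at 118%, taken against the library labelled KO A2, whose Otx2 level was already low. Zic2 at day 3 was at 38.2%, 13.9% and 64.6% of the EpiLC level in A5, B1 and A2. Pou3f1 was at 3.44%, 1.09% and 4.57%, and Fgf5 at 12.2%, 1.46% and 3.67%. KO B1 had the lowest share of the 3 lines for every one of the 4 genes. How many of all genes were lowest in B1 is not given here. The Fgf5 shares rest on 11, 1 and 3 counts at day 3 in A5, B1 and A2, too few to order B1 and A2.

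Whether the EpiLC to day 3 change itself differed between KO and WT was tested as an interaction, and none of the 4 genes passed, against 6.59% of all genes. With the replicate name as a block in the edgeR fit 1456 genes passed in place of 847, and still none of the 4. The difference of log2 changes (KO minus WT) was 1.63 for Fgf5 (adjusted p = 0.241), 0.65 for Pou3f1 (0.487), 0.40 for Otx2 (0.705) and 0.08 for Zic2 (0.946). The Otx2 difference was -0.0043 without the EpiLC library labelled KO A2, and the Zic2 difference was -0.26.

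**Figure D3:**
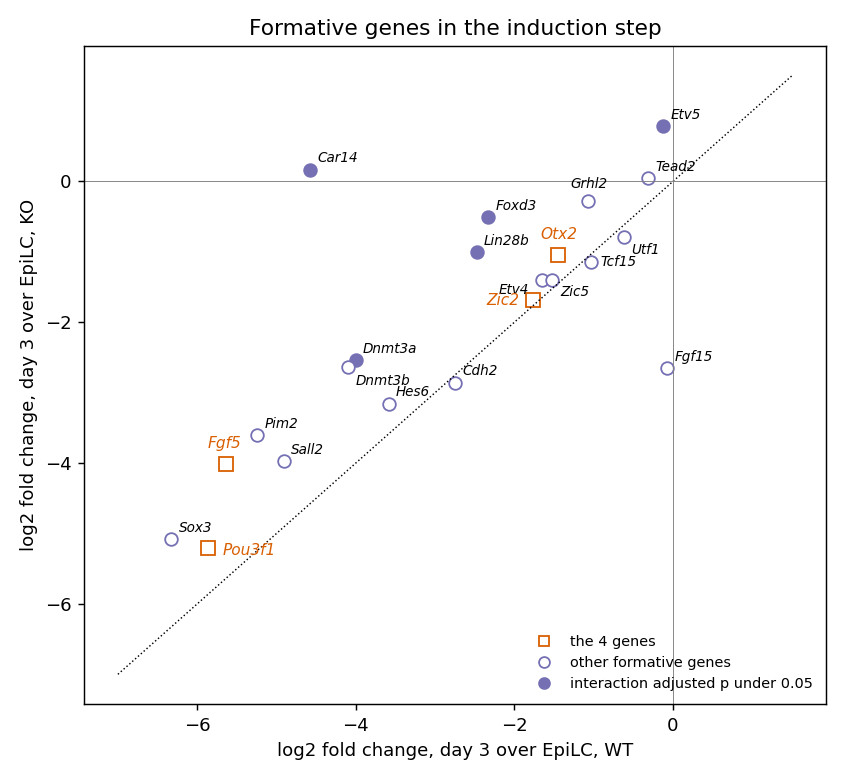
Log2 change from EpiLC to day 3 in WT (horizontal axis) against KO (vertical axis), from the edgeR fit, for the 4 genes and 18 of the 19 other formative epiblast genes, with the diagonal of equal change and filled points for an interaction adjusted p under 0.05. Pou3f1 lies at -5.86 and -5.21 and Fgf5 at -5.64 and -4.01, while Otx2 and Zic2 lie between -1.04 and -1.76 on both axes.

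At day 3 none of the 4 genes passed the test of KO against WT, against 10.2% of all genes called. Otx2 was at 30.8, 15.2 and 16.6 CPM in KO A5, B1 and A2, all below the lowest WT library at 35.9 CPM. Its log2 fold change was -0.96 ± 0.41 (adjusted p = 0.152 by edgeR). It passed only in the fit on the 6 day 3 libraries alone (-0.96, adjusted p = 0.0337), among the alternatives tried.

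Zic2 in KO day 3 stood at 49.4, 22.4 and 31.5 CPM, with A5 inside the WT range and the other two lines below it. Its log2 fold change was -0.41 ± 0.36 (adjusted p = 0.513). Pou3f1 in KO day 3 was at 10.99, 4.29 and 6.80 CPM, with A5 above and the other two below all WT libraries, and its log2 fold change was -0.02 ± 0.45 (adjusted p = 0.991). Fgf5 in KO day 3 rested on 11, 1 and 3 counts (2.37, 0.330 and 0.756 CPM) and gave 0.23 ± 0.72 (adjusted p = 0.885). For Pou3f1 and Fgf5 the direction depended on single libraries: without KO B1 the Pou3f1 value was 0.22, and without KO A5 the Fgf5 value was -0.88. For each of the 4 genes KO A5 was the highest of the 3 KO libraries and KO B1 the lowest. B1 and A2 were close for Otx2 (46 and 66 counts), and the Fgf5 counts of 1 and 3 are too few to order them. The share of all genes with this order of lines is not given here.

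At day 5 Fgf5 was higher in KO than in WT, and the other 3 genes did not pass the test. This is 1 of 4 genes called, against 17.5% of all genes called in either direction and 9.83% called higher. Fgf5 was counted 2, 0 and 1 times in the WT libraries (0.408, 0 and 0.236 CPM) and 21, 4 and 5 times in KO A5, B1 and A2 (5.16, 0.874 and 1.02 CPM). Every KO library lay above every WT library, but 21 of the 30 KO counts came from A5. The library with 0 counts allows up to 3 counts of its 4927840.

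The ratio of summed Fgf5 counts, KO over WT and per total count, was 10.4, with an exact binomial 95% interval of 3.23 to 53.2 that covers counting error only. Without A5 it was 4.46 (1.11 to 25.6). The edgeR log2 fold change was 3.23 ± 0.87 (adjusted p = 0.0172). The call was lost without WT 2, WT 3 or KO A5 (adjusted p = 0.0707, 0.0544 and 0.0918, and 2.02 without A5) and with the KO line as a random block in limma voom (2.74, adjusted p = 0.0552). KO day 5 Fgf5 remained far below its EpiLC level: A5 held 26.5% of its own EpiLC value, B1 3.87% and A2 4.97%, against 0.402% for WT.

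Otx2 at day 5 was at 34.9, 30.6 and 30.2 CPM in WT and at 55.3, 24.7 and 40.7 CPM in KO A5, B1 and A2. A5 and A2 lay above all WT libraries and B1 below them, and the log2 fold change was 0.33 ± 0.39 (adjusted p = 0.609 by edgeR). Pou3f1 showed the same order of lines: 18.4, 6.55 and 13.3 CPM in KO A5, B1 and A2 against 8.15, 9.54 and 8.02 CPM in WT, with 0.56 ± 0.40 (adjusted p = 0.372).

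Zic2 at day 5 was at 109, 113 and 55.2 CPM in KO A5, B1 and A2, against 60.5, 61.9 and 60.4 CPM in WT. A5 and B1 lay above WT and A2 below it, so the lines split differently from Otx2 and Pou3f1. The Zic2 log2 fold change was 0.59 ± 0.34 (adjusted p = 0.250). With all libraries of line A2 left out it was 0.85 (adjusted p = 0.00393), which passes, in a fit that also called more of all genes. It did not pass in any of the 6 fits with a single day 5 library left out (lowest adjusted p = 0.128 by edgeR).

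**Figure D4:**
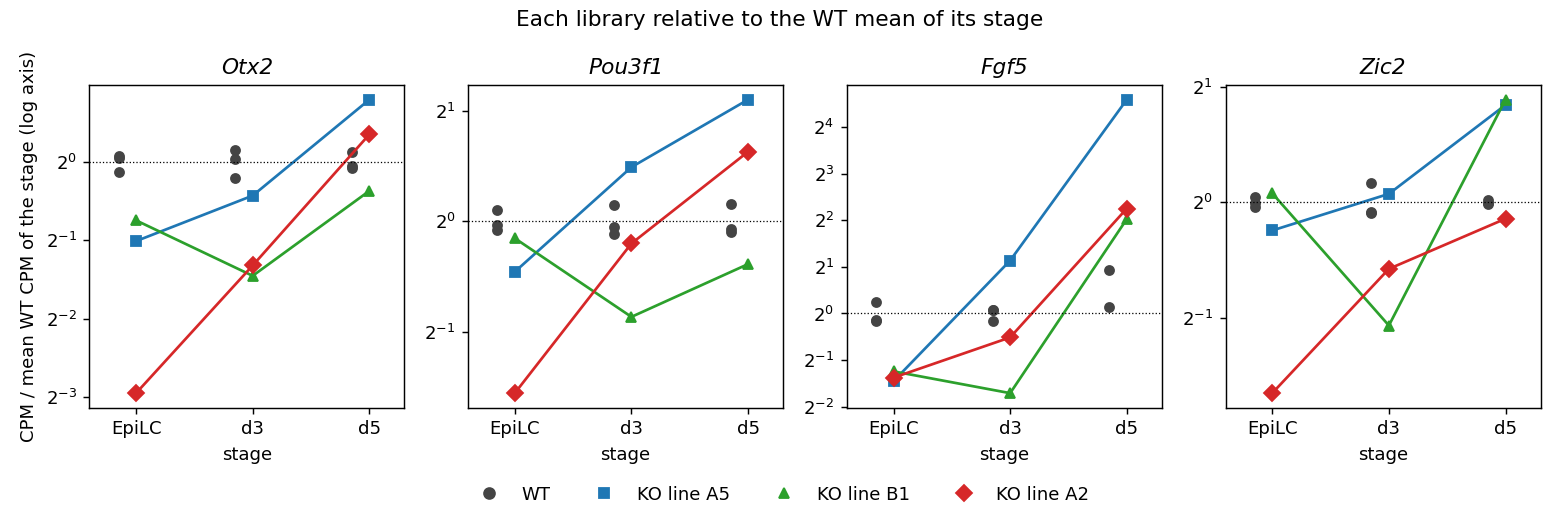
CPM of each KO library over the WT mean of its stage (log axis), for each gene at EpiLC, day 3 and day 5, with lines joining the libraries of 1 KO line; WT libraries are shown for their spread and the WT day 5 library with 0 Fgf5 counts is not drawn. Fgf5 in EpiLC is alike in the 3 lines (36.5% to 42.3% of the WT mean), while Otx2 at day 5 ranges from 77.4% in B1 to 173% in A5.

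From day 3 to day 5 no gene of the 4 passed in WT, against 0.770% of all genes, and none passed in KO, against 0.552%. In all 3 KO lines the day 5 library was above the day 3 library of the same line for all 4 genes. The share of all genes that rose in all 3 lines is not given here, so this is no result about the 4 genes as a set. The ratio was 1.79, 1.63 and 2.45 for Otx2 in A5, B1 and A2, and 1.68, 1.53 and 1.95 for Pou3f1. It was 2.18, 2.65 and 1.35 for Fgf5 and 2.21, 5.03 and 1.75 for Zic2. The Fgf5 ratios rest on few counts at day 3 and day 5: 1 and 4 in B1, and 3 and 5 in A2.

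In WT the day 5 to day 3 ratio of group means was 0.768 for Otx2, 1.10 for Pou3f1, 0.199 for Fgf5 and 1.30 for Zic2. All WT day 5 libraries lay below all WT day 3 libraries for Otx2 and Fgf5, and above them for Zic2. The share of all genes without overlap at this step is not given here. The WT log2 changes were -0.40 for Otx2 (adjusted p = 0.717), -2.22 for Fgf5 (0.316), 0.36 for Zic2 (0.718) and 0.12 for Pou3f1 (0.950). In a fit on the 6 WT libraries alone, which does not share its spread with KO, Otx2 (adjusted p = 0.00116), Zic2 (0.000523) and Fgf5 (0.0350) passed, among 3742 genes that did in place of 99.

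In KO the Zic2 change was 1.36 ± 0.35 (adjusted p = 0.118 by edgeR). With the KO line as a block in the edgeR fit it was 1.30 (adjusted p = 0.0425) and passed, among 214 genes in place of 71. Without line A2 the Zic2 change was 1.52 (adjusted p = 0.00171), in a fit that also called more of all genes. Otx2 changed by 0.88 (adjusted p = 0.395), Pou3f1 by 0.69 (0.552) and Fgf5 by 0.79 (0.690), and the Fgf5 value was -0.42 without day 5 KO A5. The interaction of genotype with this step called none of the 12856 genes in edgeR, where 561 had an unadjusted p under 0.05, and DESeq2 called 12. The step in KO and the KO to WT comparisons share the KO libraries, so their values are not independent.

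The order of the 6 groups differed from gene to gene. For Pou3f1 and Fgf5 the WT EpiLC mean was 1.52 and 2.56 times the KO EpiLC mean, and KO EpiLC was in turn 22.5 and 8.88 times the next group, with no overlap of libraries at either step. Below these, the neighbouring groups of Pou3f1 (KO day 5, WT day 5, WT day 3 and KO day 3, from 12.8 to 7.36 CPM) overlapped. For Fgf5 the lower order was KO day 5, KO day 3 and WT day 3, which overlapped with their neighbours, and then WT day 5, which lay below WT day 3 without overlap.

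For Otx2 WT EpiLC alone stood clear at 109 CPM, and the neighbours among the other 5 groups (44.4 to 20.9 CPM) overlapped. For Zic2 the order was WT EpiLC, KO EpiLC, KO day 5, WT day 5, WT day 3 and KO day 3 (153 to 34.4 CPM), and the one pair of neighbours without overlap was WT day 5 over WT day 3. KO libraries varied more than WT libraries in every gene and stage except Fgf5 in EpiLC: the coefficient of variation was 1.36 to 12.4% in the WT groups outside Fgf5 and 34.9 to 60.3% in the KO groups outside Fgf5.

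The 19 other genes of the formative epiblast list were all tested. In KO EpiLC 3 fell and 1 rose, against 11.1% of all genes called, and the median log2 fold change was -0.49, against 0.01 over all genes tested. Those that fell were Dnmt3a, a de novo DNA methyltransferase (-0.69 ± 0.15, adjusted p = 0.0145), Etv5, an ETS factor downstream of FGF signalling (-0.74 ± 0.11, adjusted p = 0.00333), and Utf1, a chromatin-associated pluripotency factor (-0.57 ± 0.10, adjusted p = 0.00510). Cdh2 (N-cadherin) was the gene that rose (1.20 ± 0.37, adjusted p = 0.0487), but it stood at 0.48 and was not called once the library labelled KO A2 was left out. The Dnmt3a call was lost without any single WT library (adjusted p up to 0.0562). The summed CPM of the 19 genes was 7145 to 7204 in WT EpiLC, 5122 in KO A5, 5756 in KO B1 and 2921 in the library labelled KO A2.

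From EpiLC to day 3, 15 of these 19 genes fell and none rose in WT, against 57.5% of all genes called, with a median of -2.33. In KO 13 fell and 1 rose, against 42.0%, with a median of -1.39, and the medians over all genes tested were 0.00 and -0.03. Sox3, an HMG-box factor, fell the most of the list in both genotypes (-6.33 ± 0.46 in WT and -5.08 ± 0.46 in KO), against -5.86 and -5.21 for Pou3f1. Dnmt3a changed by -4.003 ± 0.17 in WT and -2.54 ± 0.16 in KO, and Dnmt3b, the related de novo methyltransferase, by -4.09 ± 0.34 and -2.63 ± 0.32. The gene that rose in KO was Etv5 (0.79 ± 0.11, adjusted p = 5.46e-05), a gene chosen for mention after its values were seen.

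The interaction at this step called 5 of the 19, all less negative or higher in KO, against 2.96% of all genes called in that direction. They were Car14, a membrane carbonic anhydrase (4.74 ± 0.85, adjusted p = 0.00470), Foxd3, a forkhead factor (1.82 ± 0.34), Lin28b, an inhibitor of let-7 processing (1.48 ± 0.31), Dnmt3a (1.47 ± 0.22) and Etv5 (0.91 ± 0.16). None of the 4 genes followed here was among those called at this step.

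At day 3 the list had 4 genes higher and 2 lower in KO, against 10.2% of all genes called, with a median of 0.45. Lin28b (1.30 ± 0.23), Foxd3 (1.15 ± 0.25), Dnmt3a (0.78 ± 0.16) and Car14 (3.23 ± 0.70) rose, and Utf1 (-0.75 ± 0.10) and the growth factor Fgf15 (-2.78 ± 0.77) fell, all by edgeR. Car14 missed the threshold with the KO line as a block in limma voom (adjusted p = 0.0510), and Fgf15 missed it without any one of 5 libraries, all but KO A2 (adjusted p up to 0.0953). At day 5 the list had 5 genes higher and 1 lower, against 17.5% of all genes called, with a median of 0.64. Lin28b (1.29 ± 0.23), Foxd3 (1.07 ± 0.24) and Dnmt3a (0.74 ± 0.16) were again higher, and Utf1 (-0.94 ± 0.10) again lower. Without line A2 the counts were 10 higher and 2 lower, in a fit that also called more of all genes at day 5 than the main fit. With the KO line as a block in limma voom 3 genes of the list were higher and 3 lower at day 5. Otx2, Pou3f1 and Zic2 did not pass at either PGCLC stage. From day 3 to day 5 the list had 0 genes called in either genotype by edgeR.

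**Figure D5:**
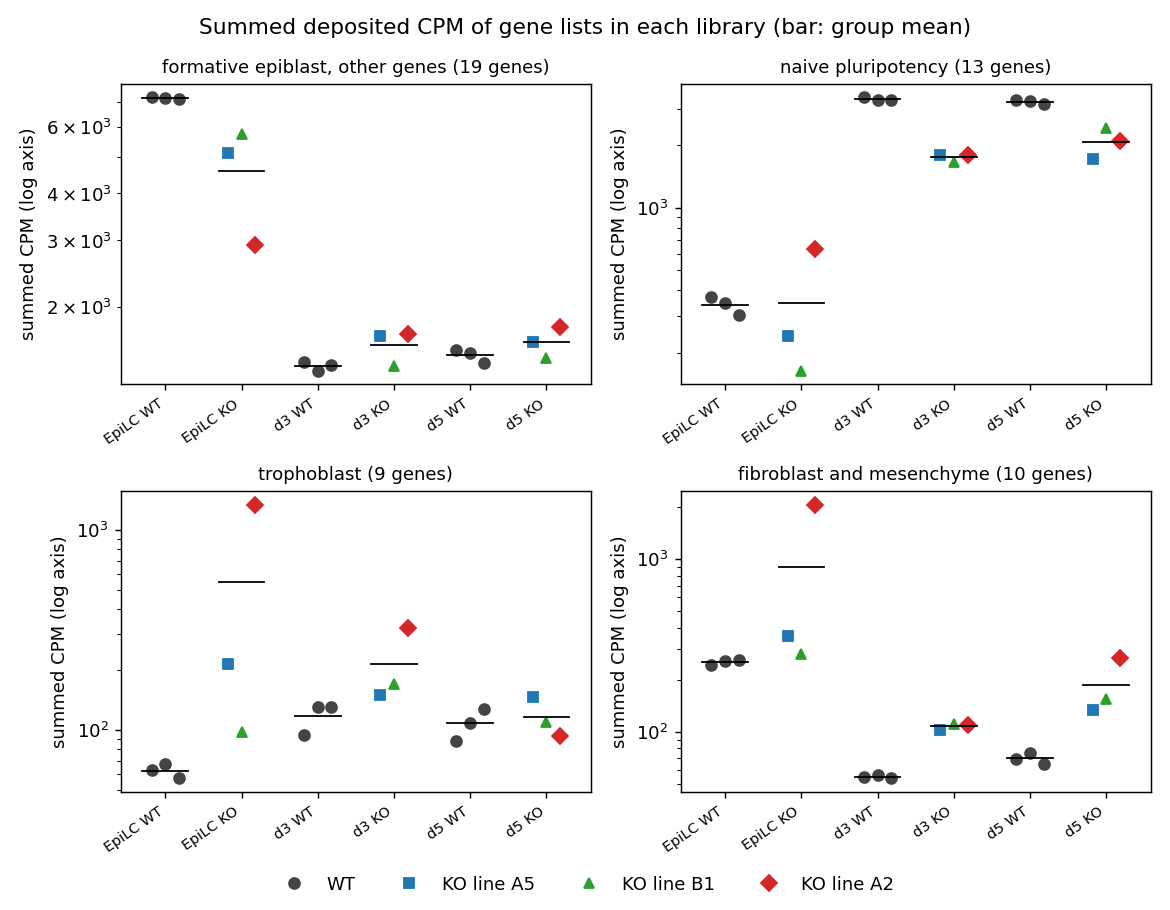
Summed CPM per library (log axis) of 4 gene lists by group, with bars for group means: other formative epiblast genes, naive pluripotency, trophoblast, and fibroblast and mesenchyme. The library labelled KO A2 is the lowest EpiLC library for the formative sum (2921 CPM). It is the highest EpiLC library for the naive pluripotency (634 CPM), trophoblast (1335 CPM) and mesenchyme (2064 CPM) sums.

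Among the paralogs of the 4 genes, Zic5 and Fgf4 passed the filter on low counts and were tested. Zic5, which starts on the opposite strand 9757 bases from Zic2 in the annotation, followed Zic2 down from EpiLC to day 3, with -1.53 ± 0.25 in WT (adjusted p = 9.57e-05) and -1.40 ± 0.26 in KO (adjusted p = 0.000500). Fgf4, a growth factor of naive cells, went the other way from Fgf5 in WT: it stood at 134 ± 10.6 CPM in WT EpiLC and 313 ± 3.34 CPM in WT day 3 (1.17 ± 0.38, adjusted p = 0.0146). In KO its change over this step was -0.37 ± 0.39 (adjusted p = 0.460). In KO day 3 Fgf4 was at 83.4 ± 19.5 CPM, a log2 fold change of -1.89 ± 0.39 (adjusted p = 0.00608), where Fgf5 did not pass. Otx1 reached at most 1.32 ± 0.401 CPM in a group mean, and Pou3f2 at most 0.282 ± 0.110 CPM.

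A list of 15 FGF receptors and ERK feedback genes reports on the pathway that Fgf5 signals through. From EpiLC to day 3, 7 of the 15 fell and 3 rose in WT, and 6 fell and 3 rose in KO. Of all genes, 57.5% were called in WT and 42.0% in KO, with 28.5% and 21.4% called lower. Without the EpiLC library labelled KO A2, 7 fell and 6 rose in KO. Dusp6, an ERK phosphatase, fell by 1.30 on the log2 scale in WT and by 1.48 in KO, and Spred1, a Ras pathway inhibitor, fell by 2.48 and 2.05. Fgfr3 rose by 2.69 and 3.15. In KO against WT at day 3, 2 of the 15 rose, against 10.2% of all genes called. Without line A2 3 rose and 1 fell, in a fit that also called more of all genes. The 2 of the main fit were Egr1 (2.05 ± 0.27, adjusted p = 0.000190) and Spry4 (1.40 ± 0.28, adjusted p = 0.00496), both known as genes induced by ERK signalling. Dusp6 (-0.01, adjusted p = 0.985), Etv4 (0.14, 0.886) and Etv5 (0.17, 0.361) of the same list did not pass there by edgeR. Whether ERK activity differed was not tested.

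Naive pluripotency and germ cell genes moved opposite to the 4 genes at induction. Of 13 naive genes, 12 rose in WT and 11 in KO from EpiLC to day 3, where 57.5% and 42.0% of all genes were called, and of 6 tested germ cell specification genes 6 rose in WT and 5 in KO. Nanog rose by 4.88 in WT and 3.90 in KO on the log2 scale, Prdm14 by 5.55 and 4.62, and Tfap2c by 5.01 and 3.94. In KO against WT the naive list, which includes Esrrb itself, had 1 of 13 genes lower in EpiLC, where 11.1% of all genes were called. It had 5 lower at day 3 (10.2% of all genes) and 4 lower at day 5 (17.5%). Without the library labelled KO A2 the EpiLC count was 5. With the line as a block in limma voom the counts at day 3 and day 5 were 8 and 8, and without line A2 they were 8 and 10. The fit without line A2 also called more of all genes at both stages than the main fit. In KO EpiLC, where 11.1% of all genes were called, the trophoblast list had 6 of 8 tested genes higher. That count was 1 without the library labelled KO A2, 3 without line A2 and 0 with the line as a block in limma voom. The mesenchyme list had 3 of 9 higher and 1 lower there, and 2 and 2 with the block. The neural ectoderm list had 1 of 6, the primitive and visceral endoderm list 1 of 4 (0 with the block) and the gastrulation mesoderm list 0 of 3 higher.

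The genes whose pattern was most like each member were ranked by the root mean square difference of centred log2 CPM over the 18 libraries, among 11016 genes. For Zic2 the closest was its neighbour Zic5, with a difference of 0.255, followed by Qprt at 0.352. For Otx2 the closest were Elovl2, a fatty acid elongase, at 0.385, and Nkd2, a Wnt pathway inhibitor, at 0.432. For Fgf5 the 5 closest included Sema6a at 0.657, Crmp1 at 0.673 and Fst at 0.682, and Pou3f1 came at rank 5 with 0.707. For Pou3f1 the closest were St8sia3 at 0.495, Wt1 at 0.532 and Jph4 at 0.561, and Fgf5 came at rank 13. The difference between Otx2 and Zic2 was 0.532, which put Zic2 at rank 31 from Otx2 and Otx2 at rank 124 from Zic2. The values depend on how far a gene ranged, which was 6.68 and 7.16 log2 units for Pou3f1 and Fgf5 and 2.99 and 2.84 for Otx2 and Zic2.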

How the data were processed

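Per the labels, RNA was extracted with PicoPure, and polyA libraries were made with a directional NEBNext Ultra II kit. The submitters' processing notes name Trim Galore 0.4.3.1 for read trimming and the builds mm10 and GRCm38.p4. Aligner, counting tool, annotation and strandedness of the counting are not given in the sources used. The deposited values are counts per gene for each library and a deposited table of CPM, which equals the counts divided by the library total. Groups came from the labels. Of 25965 rows, 56 without a gene ID (0.0559% to 0.0828% of the counts of a library) were left out.

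Counts were tested with edgeR 4.0.16 (R 4.3.3): TMM normalization, filterByExpr, a robust quasi-likelihood fit of 6 group means over all 18 libraries, and Benjamini-Hochberg adjustment over the 12856 genes tested, with an adjusted p under 0.05 called. Sharing 1 fit pools the spread of WT and KO. Levels are means of deposited CPM with their SD. The code was tested on simulated data. Alternatives were RLE size factors, no filter, DESeq2 1.42.0, limma-trend (limma 3.58.1) on log2 of CPM plus 1, the compared groups alone, no line A2, each library left out, and the replicate name as a block (a fixed term in edgeR for the steps and interactions, and a random block in limma voom for KO against WT). KO line names paired libraries: same-line deviations from the group means correlated at 0.110 to 0.588 in 9 of 9 pairs. WT numbers did not pair libraries (-0.0479 to 0.0659). Why KO libraries of a line were alike was not tested. No WT pair of a group agreed within sampling noise (chi-square over degrees of freedom from 1.11 to 1.80).

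Named genes were the 4 genes in every library, up to 4 called genes of each list with the largest change, a set list of others, and the 5 genes most like each member by root mean square difference. The 4 genes and the gene lists were chosen with earlier results of these data known. Some genes of the lists and rankings are not reported here.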

Additional observations from a re-analysis of the deposited data

Results flagged for a closer look

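For Otx2 and Fgf5 the KO and WT libraries went opposite ways from day 3 to day 5. In all 3 KO lines the day 5 value was above the day 3 value, and all WT day 5 libraries lay below all WT day 3 libraries. The share of all genes with this pattern is not given here. The difference of the log2 changes (KO minus WT) was 1.28 for Otx2 and 3.00 for Fgf5. The test of that difference, the interaction term in edgeR, did not pass for either gene (adjusted p = 0.99995 for both, unadjusted p = 0.0368 and 0.0211). The Fgf5 value rests on 3 counts in WT day 5, and it was 1.80 without the day 5 KO A5 library. At day 3 and day 5 Fgf5 had 11 and 21 counts in KO A5, 1 and 4 in B1, and 3 and 5 in A2. Without day 5 KO A5 the KO change of Fgf5 was -0.42, the same direction as in WT.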

How the results depend on the processing

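Of 508 alternative values for the 4 genes, 464 kept direction and side of the threshold, 22 kept direction but lost the call, 9 gained one and 13 changed sign, all 13 for values that were not called. Of 712 for the named genes of the lists, 679 stayed and 33 lost the call; these, and the formative list without line A2 or with the block, were chosen after seeing the data. Why values moved was not tested; depth limits Fgf5 in PGCLC most. Without the filter, log2 fold changes were -1.35 for Otx2 in EpiLC (adjusted p = 0.0634) and -1.02 for its KO step to day 3 (0.0897), and 46 genes were called from day 3 to day 5 in KO. DESeq2 called 325 genes from day 3 to day 5 in WT, 173 in KO, 1277 for the interaction at EpiLC to day 3 and 12 for the later one, and gave 1.38 for Zic2 in the late KO step (adjusted p = 0.00984). With limma-trend Fgf5 at day 3 was -0.063 and the Otx2 KO step to day 3 -0.87 (adjusted p = 0.0993).

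With only the groups compared, calls numbered 0 for EpiLC (2569 at an unadjusted p under 0.05), 2193 for the KO step to day 3, 3742 for WT day 3 to day 5, 0 for KO day 3 to day 5 (982 unadjusted), and 445 and 5 for the interactions. That fit gave -1.36 and -1.40 for Otx2 and Fgf5 in EpiLC (adjusted p = 0.207 and 0.0784), -0.96 for Otx2 at day 3 (0.0337), 3.25 for Fgf5 at day 5 (0.0633) and -1.05 for the Otx2 KO step to day 3 (0.212). For the late WT step it gave -0.40 for Otx2 (0.00116), -2.23 for Fgf5 (0.0350) and 0.36 for Zic2 (0.000523). Without line A2, calls numbered 2687 at day 3, 3862 at day 5, 879 for KO day 3 to day 5, and 1898 and 83 for the interactions. Zic2 was then at 0.85 at day 5 (0.00393), 1.52 in the late KO step (0.00171) and -0.17 in the early interaction, and Pou3f1 at 0.082 at day 3.

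With the replicate name as a block, calls numbered 911 for EpiLC (limma voom, as in all KO to WT comparisons with the block), 387 and 214 for day 3 to day 5 in WT and KO and 1456 for the early interaction. The block gave 2.74 for Fgf5 at day 5 (0.0552), -1.02 for the Otx2 KO step to day 3 (0.0633), 1.30 for Zic2 in the late KO step (0.0425) and -0.10 for Fgf5 at day 3, and changed no other call of the 4 genes. Since WT numbers did not pair the libraries, a call lost in WT under the block would not be a weaker effect.

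Leaving out single libraries, calls ranged from 174 (without WT 2) to 2445 (without KO B1) for EpiLC, from 625 (without WT 2) to 1479 at day 3, from 1314 (without WT 3) to 2176 at day 5, from 10 to 24 for WT day 3 to day 5, from 9 (without day 3 KO B1) to 76 for KO, and from 367 to 1533 for the early interaction. In EpiLC, Otx2 ranged from -1.73 to -0.94, Fgf5 from -1.48 to -1.26 and Pou3f1 from -0.96 to -0.37. At day 3, Pou3f1 ranged from -0.45 to 0.22 and Fgf5 from -0.88 to 0.57. At day 5, Fgf5 ranged from 2.02 to 4.04. The Otx2 KO step to day 3 ranged from -1.45 to -0.66 and the Fgf5 late KO step from -0.42 to 1.90. The early interaction ranged from -0.0090 to 0.78 for Otx2 and from -0.28 to 0.43 for Zic2. Dividing by TMM-adjusted totals moved 2 of 24 group levels by more than their SD, Zic2 in WT EpiLC (159 CPM) and WT day 5 (59.9 CPM).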
